A study of Homo sapiens with 4 samples.

Results

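The kinetochore is the protein assembly on the centromere that holds a chromosome to the spindle, and 45 human genes of the kinetochore, the centromere and the spindle checkpoint were followed here. They were chosen by name, as subunits of known complexes, with earlier results of these data known. Of the 45, 42 had a transcript cluster (the array's unit for the exons of a gene) that the platform's annotation gives to 1 gene alone. These 42 are among 22411 genes so measured, and all 42 lay above the level filter and were tested. CENPP, PMF1 and BUB1B had no cluster given to 1 gene alone and were not analysed. The samples came from HCT116, an established human colon cancer cell line. Cells received 50 nM of a control siRNA or of an siRNA against CTNNB1, the gene for beta-catenin, and total RNA was taken 48 h later. Each group had 2 arrays, 1 per replicate. The study asked how gene expression in these cells changes when beta-catenin, the co-activator of Wnt signalling, is depleted.

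In each cell cycle, the histone variant CENP-A is placed at the centromere and marks it. A network of constitutive subunits sits on CENP-A chromatin, and at mitosis the KNL1, MIS12 and NDC80 complexes build on it and bind microtubules. Kinetochores that are not yet attached recruit the spindle checkpoint proteins, which hold back the anaphase-promoting complex. Many of these genes are transcribed mainly in G2 and mitosis, under the MuvB, B-MYB and FOXM1 factors, so that their messages are abundant in dividing cells.

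CTNNB1 itself was at 10.06 and 10.20 log2 units on the control arrays and at 6.50 and 6.65 after CTNNB1 siRNA, so the labels hold for the targeted gene. Replicate arrays correlated across tested genes with r = 0.997 in both groups. The epithelial genes EPCAM, KRT8, KRT18 and KRT19 lay between 10.50 and 13.71 log2 units on every array. CDH1, from the same list, was at 6.80 and 7.20 in controls and at 9.06 and 9.48 after CTNNB1 siRNA, a 4.82-fold rise. LGALS4 lay between 4.80 and 4.90. The intestinal genes CDX2, VIL1 and CDH17 lay between 3.71 and 4.16, below the level filter of 4.29. Of 6 tested epithelial markers 4 rose (66.7%, against 14.2% of all tested genes) and none fell. Of 4 tested markers of other cell types 1 rose (CD68) and 1 fell (VIM). The deposited scale may be wider than a plain log2 intensity scale, so folds are stated on the deposited scale. An exact 2-sided permutation test of 2 against 2 arrays cannot go below p = 0.33, so each test rests on limma, which pools the spread across genes.

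After CTNNB1 siRNA the kinetochore genes were lower almost throughout. At an adjusted p under 0.05 in limma, 37 of the 42 were called lower, 2 higher and 3 missed the threshold. Over all 15679 tested genes 30.3% were called, 16.1% lower and 14.2% higher, against 88.1% lower and 4.76% higher among the members. The members' median log2 fold change was -0.85, with the middle 50% between -1.07 and -0.62, beside a median of -0.02 for all tested genes. A fall of at least 2-fold was reached by 15 members (35.7%, against 2.83% of all tested genes), and of at least 1.5-fold by 31 (73.8%, against 8.21%). On 39 members both CTNNB1 siRNA arrays lay below both control arrays (34.2% of all tested genes did so), on 2 both lay above (28.8% of all tested genes), and on 1, SPC24, the groups overlapped. In RNA from whole cultures, fewer cells in mitosis and less RNA per cell cannot be told apart.

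**Figure D1:**
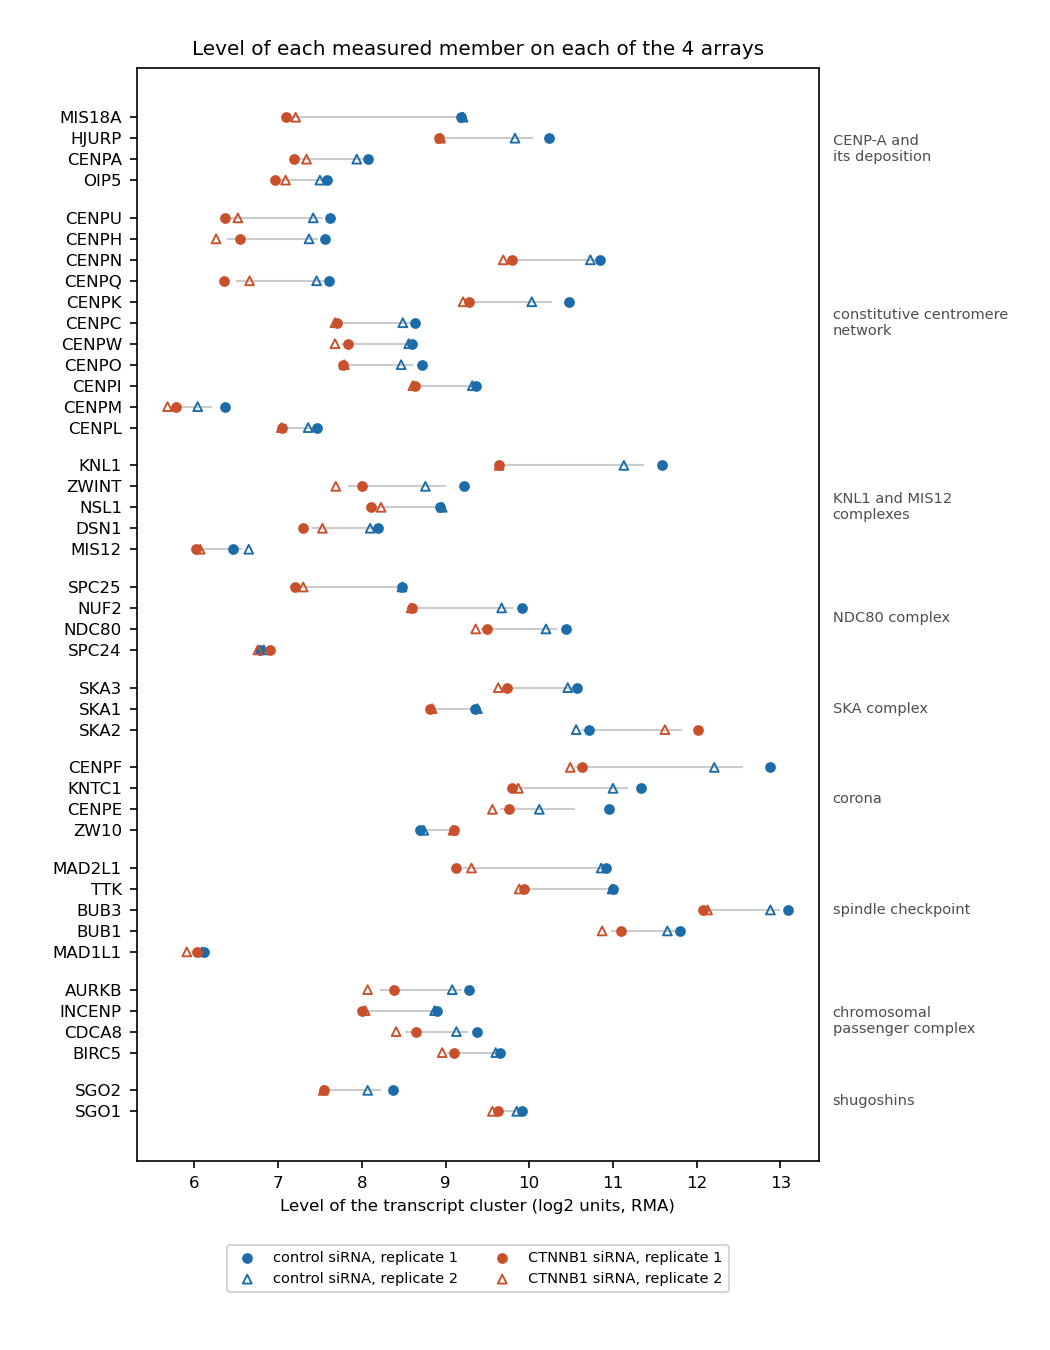
Level of each of the 42 measured members on each array (x axis, log2 units), grouped by complex; blue marks control siRNA, red marks CTNNB1 siRNA, circles and triangles mark replicates 1 and 2, and grey lines join the group means. Red points lie left of blue points for 39 members and right of them for SKA2 and ZW10.

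The control arrays did not sit at the same level for these genes. Control replicate 1 was above control replicate 2 on 35 of the 42 members (83.3%), where it was above on 50.4% of all tested genes, and the median difference was 0.14 log2 units against 0.01. CENPE and CENPF had the widest gaps, 10.95 against 10.12 and 12.88 against 12.21 log2 units. Between the CTNNB1 siRNA arrays the members' median difference was 0.02. Without control replicate 1 the members' median change was -0.78, and without control replicate 2 it was -0.91. With any 1 of the 4 arrays left out no gene passed in limma. In those fits 39 or 40 of the 42 members had a negative change, and the median over all tested genes lay between -0.03 and -0.005.

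All 4 genes of CENP-A and its deposition fell. MIS18A, which encodes a subunit of the Mis18 complex that licenses the centromere for new CENP-A, had the largest estimated fall of the 42 members, with an interval that overlaps those of CENPF, KNL1 and MAD2L1. Its levels were 9.18 and 9.21 log2 units with control siRNA and 7.09 and 7.21 with CTNNB1 siRNA. The replicates were thus close together and the groups far apart. MIS18A fell by 2.05 on the log2 scale (SE 0.08), a 4.13-fold difference (adjusted p 0.00025 in limma). HJURP, the chaperone that carries CENP-A to the centromere, fell by 1.11 (SE 0.14). CENPA itself was at 8.08 and 7.94 in the control arrays and at 7.19 and 7.34 in the others, and fell by 0.75 (SE 0.10, adjusted p 0.0034 in limma). OIP5, the partner of MIS18A in the same complex, had the smallest fall of the 4. It was at 7.59 and 7.50 against 6.96 and 7.09, and fell by 0.52 (SE 0.09). The 95% intervals of these partners, -2.25 to -1.84 for MIS18A and -0.74 to -0.30 for OIP5, do not meet.

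The constitutive centromere network links CENP-A chromatin to the outer kinetochore at mitosis. It fell in all 11 measured members, with a median log2 fold change of -0.87. CENPU, of the subcomplex that also holds CENPO and CENPQ, led with 7.62 and 7.42 log2 units in controls and 6.37 and 6.52 after CTNNB1 siRNA. CENPU fell by 1.08 (SE 0.11). CENPH, CENPN, CENPQ and CENPK lay close to it, with log2 fold changes of -1.07, -1.05, -1.03 and -1.01 and SEs between 0.09 and 0.15. Their intervals overlap, so no order among these 5 is given by the data. CENPC, the large scaffold that binds CENP-A nucleosomes and the MIS12 complex, fell by 0.87 (SE 0.09), and CENPW, a histone-fold subunit, fell by 0.82 (SE 0.09). CENPO fell by 0.82 (SE 0.11) and CENPI fell by 0.72 (SE 0.08). CENPL, the partner of CENPN, had the smallest fall. Its levels were 7.46 and 7.36 against 7.05 and 7.04, and fell by 0.37 (SE 0.08). CENPM fell by 0.48 (SE 0.13, adjusted p 0.038 in limma), but it fell by 0.31 without control replicate 1, and it missed the threshold without a level filter (adjusted p 0.052 in limma).

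Outer kinetochore genes of the KNL1 and MIS12 complexes all fell, 5 of 5 measured. KNL1, the scaffold that recruits BUB1 and BUB3 to the kinetochore, was at 11.59 and 11.13 log2 units with control siRNA and at 9.64 on both arrays with CTNNB1 siRNA. It fell by 1.72 (SE 0.16), a 3.29-fold difference. ZWINT, which binds KNL1, fell by 1.15 (SE 0.18). In the MIS12 complex, the hub between the inner and the outer kinetochore, NSL1 fell by 0.78 (SE 0.08) and DSN1 fell by 0.73 (SE 0.10). MIS12 was at 6.46 and 6.65 against 6.02 and 6.07, and fell by 0.51 (SE 0.09).

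In the NDC80 complex, the main microtubule-binding unit, 3 of 4 subunits fell and 1 did not pass. SPC25 was at 8.48 on both control arrays and at 7.20 and 7.30 after CTNNB1 siRNA, and fell by 1.23 (SE 0.08). NUF2 fell by 1.20 (SE 0.10) and NDC80 fell by 0.89 (SE 0.11). SPC24, which forms a dimer with SPC25, was at 6.79 and 6.83 in controls and at 6.90 and 6.76 after CTNNB1 siRNA. The groups overlapped. SPC24 had a log2 fold change of 0.02 with a 95% interval of -0.19 to 0.23, so a fall of the size of its partner's lies outside the interval.

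The SKA complex, which helps NDC80 hold on to shrinking microtubules, split. SKA2 was at 10.71 and 10.56 log2 units with control siRNA and rose to 12.01 and 11.62 with CTNNB1 siRNA. Both treated arrays were above both controls. The rise was 1.18 log2 units (SE 0.14), a 2.27-fold difference (adjusted p 0.0029 in limma). The other two subunits fell. SKA1 was at 9.35 and 9.38 against 8.82 and 8.84, and fell by 0.54 (SE 0.08), and SKA3 fell by 0.83 (SE 0.09).

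Genes of the corona, the outermost layer of an unattached kinetochore, differed widely. CENPF, a large microtubule-binding protein, was at 12.88 and 12.21 log2 units in controls and at 10.63 and 10.49 after CTNNB1 siRNA. It fell by 1.99 (SE 0.22), and fell by 1.65 without control replicate 1. KNTC1, the ROD subunit of the RZZ complex that brings dynein and the checkpoint protein MAD1 to the kinetochore, fell by 1.34 (SE 0.13). ZW10, a subunit of the same complex that also acts in membrane traffic, rose. Its levels were 8.70 and 8.74 in controls and 9.10 and 9.09 after CTNNB1 siRNA, a rise of 0.38 log2 units (SE 0.08, adjusted p 0.015 in limma). CENPE, a kinesin that moves chromosomes to the spindle equator, was at 10.95 and 10.12 against 9.76 and 9.56. The groups did not overlap, but CENPE missed the threshold. Its log2 fold change was -0.88 (95% interval -1.53 to -0.22), at an adjusted p of 0.056 in limma. That value was -0.46 without control replicate 1 and -1.29 without control replicate 2.

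**Figure D2:**
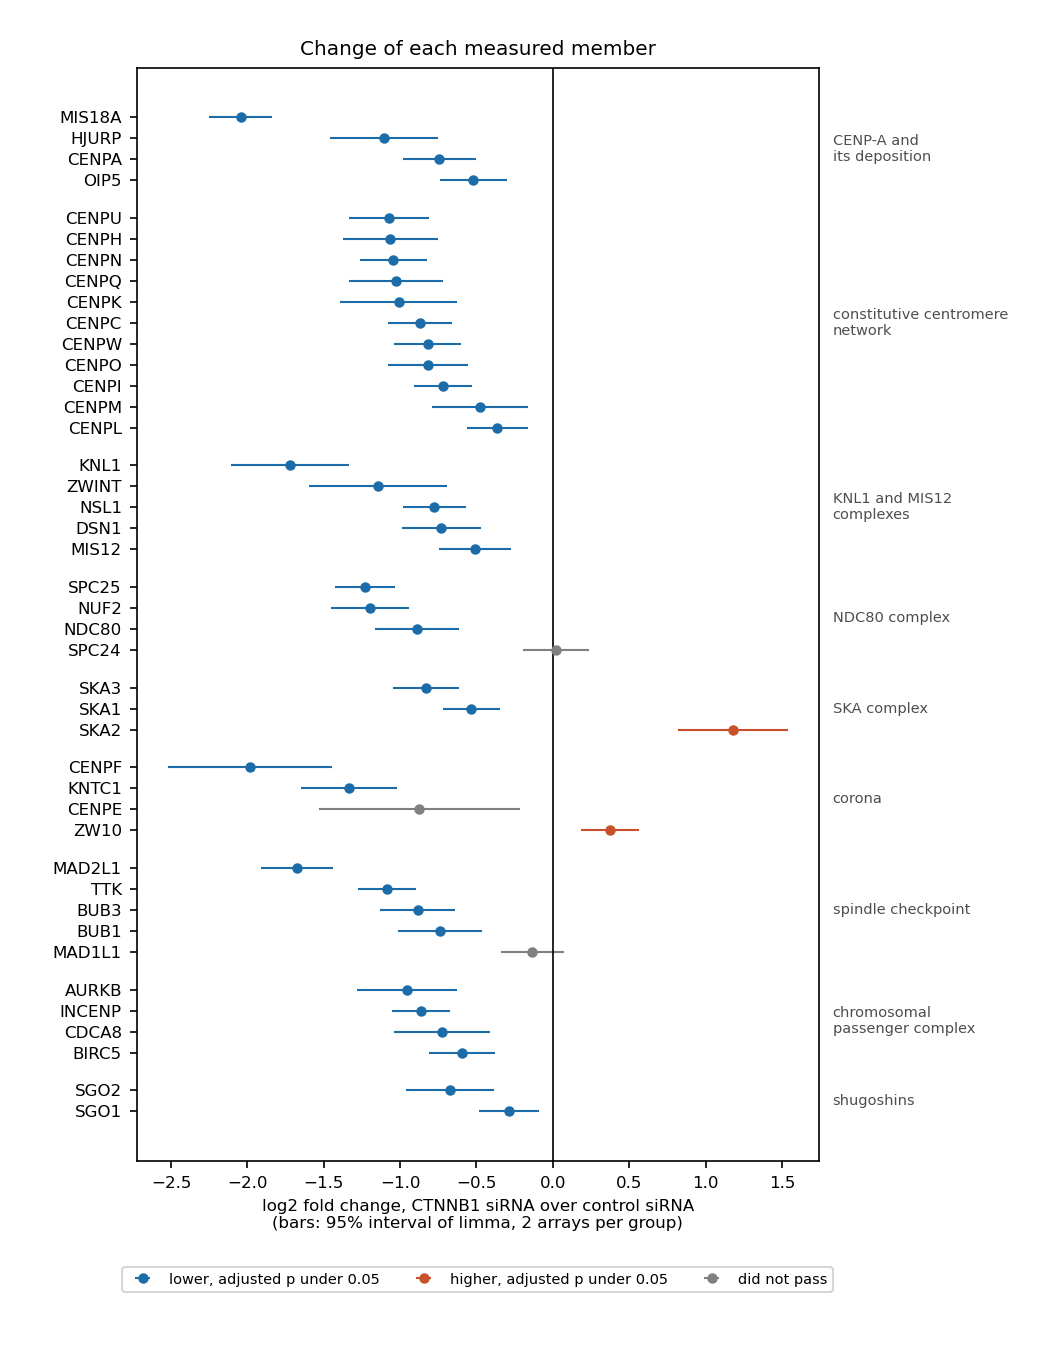
log2 fold change of each of the 42 measured members (x axis, CTNNB1 siRNA over control siRNA) with its 95% interval from limma (bars, 2 arrays per group), grouped by complex. Blue members fell, red ones (SKA2 and ZW10) rose, and grey ones (SPC24, CENPE and MAD1L1) did not pass.

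Of the 5 measured spindle checkpoint genes, 4 fell and 1 did not pass. MAD2L1 encodes MAD2, the protein that binds and blocks CDC20. It was at 10.92 and 10.86 log2 units with control siRNA and at 9.12 and 9.31 with CTNNB1 siRNA, and fell by 1.68 (SE 0.10), a 3.19-fold difference (adjusted p 0.00042 in limma). TTK, the MPS1 kinase that starts checkpoint signalling, fell by 1.09 (SE 0.08), and BUB3 fell by 0.89 (SE 0.10). BUB1, a checkpoint kinase that also marks the centromere for shugoshin, was at 11.80 and 11.65 against 11.10 and 10.87, and fell by 0.74 (SE 0.11). MAD1L1 encodes MAD1, on which MAD2 is converted to its active form. Its levels were 6.12 and 6.09 in controls and 6.03 and 5.91 after CTNNB1 siRNA. Both treated arrays were slightly lower, but the log2 fold change of -0.14 (95% interval -0.34 to 0.07) missed the threshold (adjusted p 0.30 in limma). MAD1L1 and its partner MAD2L1 thus had intervals far apart.

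The chromosomal passenger complex corrects wrong attachments through the kinase Aurora B, and all 4 of its genes fell within a narrow band. AURKB, which encodes that kinase, was at 9.28 and 9.08 log2 units in controls and at 8.38 and 8.07 after CTNNB1 siRNA, and fell by 0.96 (SE 0.13). INCENP, the scaffold, fell by 0.87 (SE 0.08), and CDCA8, which encodes borealin, fell by 0.73 (SE 0.13). BIRC5, which encodes survivin, was at 9.65 and 9.60 against 9.10 and 8.96, and fell by 0.60 (SE 0.09). Their 4 intervals overlap.

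Shugoshins protect the cohesin that joins sister centromeres, and both fell. SGO2 was at 8.37 and 8.07 log2 units in controls and at 7.55 and 7.54 after CTNNB1 siRNA, and fell by 0.68 (SE 0.12). SGO1 was at 9.91 and 9.85 against 9.63 and 9.56. SGO1 fell by 0.29 (SE 0.08, adjusted p 0.044 in limma), which was the smallest of the 37 and missed the threshold under 5 of 7 other settings.

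Lists of related genes outside the 42 differed from one another. Among 23 tested further genes of the centromere and kinetochore, 18 were lower (78.3%, against 16.1% of all tested genes). Of the others, 1 was higher (4.35%, against 14.2%) and 4 missed the threshold. The 23 genes had a median log2 fold change of -0.67. KIF2C, a microtubule-depolymerising kinesin of the centromere, fell by 1.67 (SE 0.12). CDC20, the checkpoint's target and an activator of the anaphase-promoting complex, fell by 1.32 (SE 0.12), and SPDL1, which recruits dynein to kinetochores, fell by 1.24 (SE 0.10). NDEL1, a dynein cofactor, rose by 0.48 (SE 0.10). CENPT, ZWILCH, CENPB and ERCC6L did not pass, with log2 fold changes of 0.09, -0.38, -0.18 and -0.25. ZWILCH is the remaining subunit of the RZZ complex, in which KNTC1 fell and ZW10 rose.

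Genes of the anaphase-promoting complex, on which the checkpoint acts, were called at shares near those of all tested genes. Here 4 of 16 were lower (25%, against 16.1%), 2 were higher (12.5%, against 14.2%) and 10 missed the threshold, and the median log2 fold change was -0.07. The lower calls were the subunit genes CDC27 and ANAPC4, and UBE2C and UBE2S, which encode ubiquitin-conjugating enzymes that work with the complex. UBE2C fell by 1.24 (SE 0.10), and CDC27 fell by 0.80 (SE 0.08). The cluster kept for UBE2S is named for another chromosome than that of the gene, and whether it reads UBE2S was not tested. The subunit gene CDC23 rose by 0.80 log2 units (SE 0.08) and ANAPC13 rose by 0.37 (SE 0.09).

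**Figure D3:**
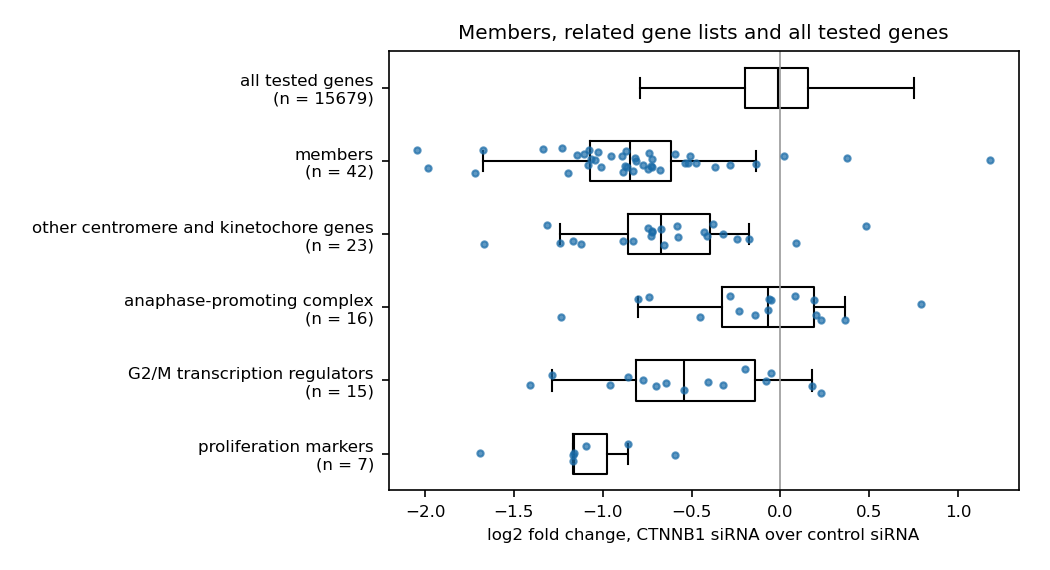
log2 fold change (x axis, CTNNB1 siRNA over control siRNA) of all tested genes, of the 42 members and of 4 lists of related genes. Boxes span the quartiles with the median, whiskers the 5th to 95th percentile, and points are single genes. The members' median lies at -0.85 and that of the anaphase-promoting complex at -0.07.

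Proliferation markers moved with the members. All 7 fell, where 16.1% of all tested genes did, with a median log2 fold change of -1.16. MKI67 went from 15.27 and 14.99 log2 units to 13.99 and 13.93 and fell by 1.17 (SE 0.11). CCNB1, the cyclin of mitotic entry, fell by 1.69 (SE 0.08), and CDK1, its kinase, fell by 1.17 (SE 0.08). Control replicate 1 was above control replicate 2 on 6 of the 7. Regulators of G2/M transcription were lower in 10 of 15 tested genes (66.7%, against 16.1% of all tested genes), and the other 5 missed the threshold. Their median log2 fold change was -0.54. RBL1, which encodes the pocket protein p107, fell by 1.41 (SE 0.13), FOXM1 fell by 1.29 (SE 0.09) and NFYA, a subunit of the CCAAT-binding factor NF-Y, fell by 0.96 (SE 0.08). The part of cell cycle state in the members' fall was not tested.

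Promoters were examined because the members moved together. G2/M genes are known for a short element near the start of transcription, the cell cycle genes homology region (CHR), which binds the MuvB complex, often with CCAAT boxes upstream. RefSeq windows of GRCh38.p14, from 250 bases before to 50 bases after a start, were present for 33 of the 42 members and for 11126 of the tested genes. The 9 members without a window were MIS18A, KNL1, KNTC1, TTK, CENPH, BUB3, BIRC5, CENPL and CENPM. The motif counts and medians thus leave out MIS18A and KNL1, which had log2 fold changes of -2.05 and -1.72. The searched letters were TTTGAA or TTCGAA for the CHR, CCAAT for NF-Y, and TTCCCGC or TTGGCGC for E2F, each on both strands. A CHR match was held by 20 of the 33 members (60.6%), against 15.9% of the tested genes. CCAAT was held by 23 members (69.7%, against 42.5%), an E2F match by 9 (27.3%, against 16.6%), and both CHR and CCAAT by 15 (45.5%, against 8.46%).

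The CHR matches of the members lay at the start site. Of their 23 CHR matches 82.6% had their centre within 50 bases of the start, where 27.0% of the 2176 matches of other tested genes did. This distance was chosen after the positions were seen. CENPC and HJURP, which fell, and ZW10, which rose, had CHR matches only outside it. A CHR match that close was held by 17 of 33 members (51.5%) and by 5.05% of the tested genes. All 17 such members fell, as did 11 of the 16 members without one. Outside the members, 545 tested genes held such a match. Of these 545, 168 were lower, 70 were higher and 307 missed the threshold, so most genes with a close match did not fall. Among called genes that are no member, 8.55% of the lower and 4.03% of the higher ones held one. Members with such a match had a median log2 fold change of -0.83, and those without one a median of -0.75, a small difference. CCAAT matches of the members had their median centre at -85.5 bases from the start, near the -93.5 bases of other tested genes.

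**Figure D4:**
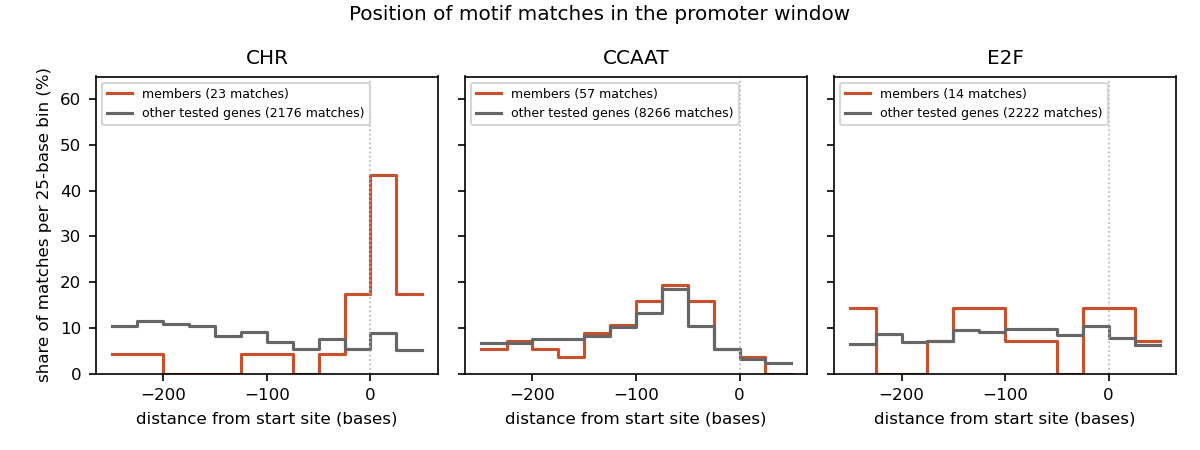
Share of motif matches in each 25-base bin of the promoter window (y axis, %) by distance of the bin from the start site (x axis, bases), for members (red) and other tested genes (grey). CHR matches of the members gather around the start (82.6% within 50 bases), and CCAAT matches have a similar profile in both sets.

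The windows of 6 members are given to show this arrangement and its exceptions, each 5′ to 3′ on the gene's own strand, with every CHR, CCAAT and E2F match in capitals. CENPF (chr1:214602945-214603244, plus strand), MAD2L1 (chr4:120066799-120067098, minus strand) and CENPA (chr2:26785806-26786105, plus strand) fell and hold at least 1 CCAAT box and a CHR match centred at 43, 27 and -15 bases from the start. The CCAAT boxes are centred at -91.5, -55.5, -30.5 and 14.5 in CENPF. In MAD2L1 the only one is far upstream at -226.5, and in CENPA they are at -202.5 and -127.5. CENPI (chrX:101100808-101101107, plus strand) fell, and its window held no CHR, CCAAT or E2F match. Whether the annotated start of this window is the one used in these cells was not tested. No statement on the promoter in use for CENPI follows from it. SKA2 (chr17:59155137-59155436, minus strand) rose and holds 5 CCAAT boxes and no CHR match. ZW10 (chr11:113773643-113773942, minus strand) rose as well. Its only CHR match is centred at -221 bases from the start, and 1 of its 2 E2F matches shares letters with its CCAAT box. The CHR matches near the start recur as TTTGAA in CENPF, MAD2L1 and CENPA.
CENPF: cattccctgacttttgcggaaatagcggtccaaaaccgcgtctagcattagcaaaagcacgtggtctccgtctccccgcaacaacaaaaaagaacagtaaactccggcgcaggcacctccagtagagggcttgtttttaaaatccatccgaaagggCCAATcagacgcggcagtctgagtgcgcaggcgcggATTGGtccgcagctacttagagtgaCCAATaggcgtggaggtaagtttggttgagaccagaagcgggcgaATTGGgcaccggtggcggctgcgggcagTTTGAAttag
MAD2L1: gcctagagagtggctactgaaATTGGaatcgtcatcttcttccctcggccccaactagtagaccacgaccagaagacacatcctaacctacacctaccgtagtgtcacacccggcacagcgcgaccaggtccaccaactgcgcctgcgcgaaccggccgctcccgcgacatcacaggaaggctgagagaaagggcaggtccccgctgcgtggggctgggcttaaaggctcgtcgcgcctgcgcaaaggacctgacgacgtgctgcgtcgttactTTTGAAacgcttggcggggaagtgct
CENPA: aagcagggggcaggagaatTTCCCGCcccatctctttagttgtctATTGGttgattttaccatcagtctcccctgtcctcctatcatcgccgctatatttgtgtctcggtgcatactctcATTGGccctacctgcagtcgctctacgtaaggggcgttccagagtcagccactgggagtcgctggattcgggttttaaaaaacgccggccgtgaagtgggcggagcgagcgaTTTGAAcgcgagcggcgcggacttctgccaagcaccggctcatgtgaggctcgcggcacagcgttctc
CENPI: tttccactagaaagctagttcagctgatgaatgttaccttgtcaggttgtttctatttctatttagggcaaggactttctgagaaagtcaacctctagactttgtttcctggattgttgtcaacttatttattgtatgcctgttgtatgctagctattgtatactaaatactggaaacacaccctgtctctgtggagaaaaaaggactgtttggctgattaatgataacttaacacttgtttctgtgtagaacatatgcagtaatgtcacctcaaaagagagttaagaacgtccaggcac
SKA2: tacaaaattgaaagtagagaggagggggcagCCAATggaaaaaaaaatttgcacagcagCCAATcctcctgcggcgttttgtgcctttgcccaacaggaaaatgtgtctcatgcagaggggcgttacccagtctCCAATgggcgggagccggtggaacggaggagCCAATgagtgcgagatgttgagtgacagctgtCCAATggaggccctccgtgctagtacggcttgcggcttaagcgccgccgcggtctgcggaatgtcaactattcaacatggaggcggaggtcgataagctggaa
ZW10: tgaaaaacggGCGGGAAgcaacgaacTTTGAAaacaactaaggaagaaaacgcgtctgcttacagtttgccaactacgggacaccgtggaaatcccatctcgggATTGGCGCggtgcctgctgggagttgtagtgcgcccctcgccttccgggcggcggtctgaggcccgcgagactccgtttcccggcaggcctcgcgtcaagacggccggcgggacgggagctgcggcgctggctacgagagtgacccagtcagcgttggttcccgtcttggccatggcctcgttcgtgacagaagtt
A match is a description of these letters and shows no binding.

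Of the 3 members that did not pass, SPC24 held CCAAT alone, and CENPE and MAD1L1 held none of the letters. In the windows used, CENPI, DSN1 and NSL1 held none either, and all of them fell. No CHR match was found anywhere in the windows of AURKB, CENPK, CENPQ, CENPU, MIS12 and SGO2, which fell and hold CCAAT.

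Several members start back to back with another gene, and these neighbours were set beside them after the values were seen. Opposite-strand starts within 1000 bases upstream gave 12 pairs in which both genes were tested, 34 to 560 bases apart. Among the 12 neighbours 5 were lower, 1 was higher and 6 missed the threshold. Over all tested genes 16.1% were lower and 14.2% higher. Of the 5, AIRIM, next to CDCA8, passed narrowly (adjusted p 0.04997 in limma). The neighbours had a median log2 fold change of -0.27, while the members of these pairs had a median of -0.82. NUSAP1, a spindle protein gene next to OIP5, fell by 0.70 (SE 0.10), and METTL4, next to NDC80 at 52 bases, fell by 0.50 (SE 0.10). In 2 pairs member and neighbour were called in opposite directions. PPWD1, 128 bases from CENPK, rose by 0.56 log2 units (SE 0.09), while CENPK fell. PRR11, 560 bases from SKA2, was at 12.24 and 12.04 log2 units with control siRNA and at 10.15 and 10.18 with CTNNB1 siRNA. PRR11 fell by 1.98 (SE 0.10, adjusted p 0.00033 in limma), while SKA2 rose by 1.18.

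**Figure D5:**
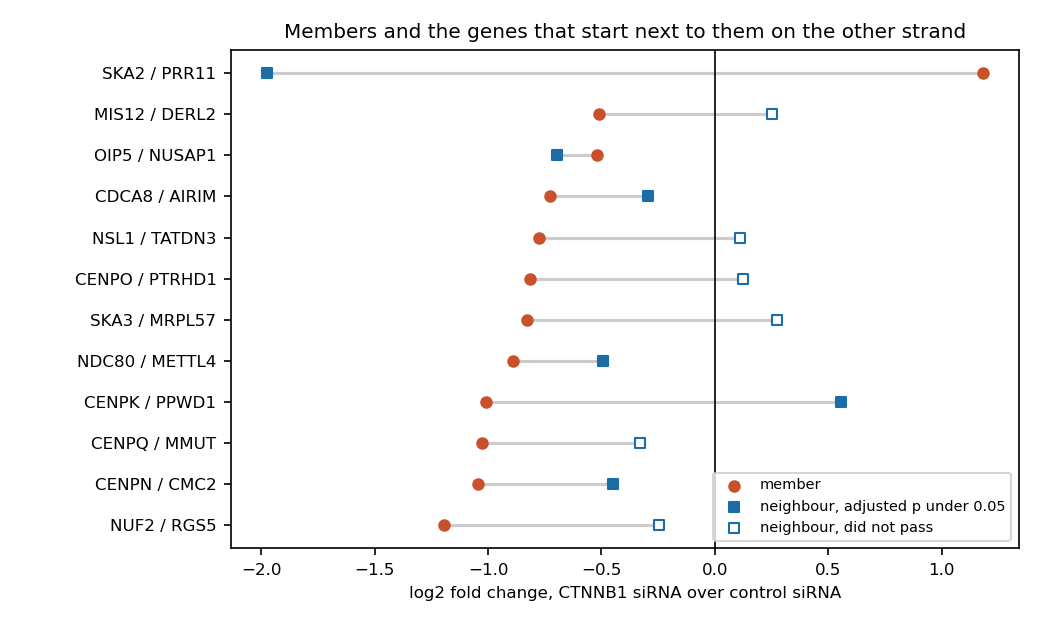
log2 fold change (x axis, CTNNB1 siRNA over control siRNA) of 12 members (red circles) and of the gene that starts next to each on the opposite strand (blue squares, filled where the neighbour passed an adjusted p under 0.05). SKA2 and PRR11 lie at 1.18 and -1.98, the widest gap of the 12 pairs.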

How the data were processed

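The deposited table holds log2 expression levels per transcript cluster on 4 arrays, which the authors made with Affymetrix Expression Console and RMA, per the submitters' processing notes. Not given in the sources used here are software versions, which form of RMA was run, and the build behind the clusters. It had 67528 clusters. Of these, 23781 carried 1 symbol in the platform's annotation, updated through RefSeq (GRCh38.p14). For a gene with several clusters the one with the highest mean over the 4 arrays was kept. Each measured member had 1 cluster. Genes with a mean above the 30th percentile (4.29 log2 units) were tested, 15679 in all, with limma 3.58.1 in R 4.3.3 (2 groups, no block, 5.66 moderated degrees of freedom) and Benjamini-Hochberg adjustment at 0.05. Each change is the mean with CTNNB1 siRNA minus the control mean, with its standard error (SE) and 95% interval. The labels call the samples biological replicates without naming separate cultures, so p-values measure the spread between these samples. The number of arrays limits the precision.

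Members and lists (further centromere and kinetochore genes, anaphase-promoting complex, G2/M regulators, proliferation markers, epithelial markers, markers of other cell types) were chosen with earlier results of these data known. In each complex the members with the largest and the smallest change are given by array, with both that rose and CENPA, CENPF, MAD2L1, BUB1 and AURKB. Other lists name CTNNB1, MKI67, CCNB1, the 3 largest changes and calls against the list's direction. PRR11, PPWD1, NUSAP1, METTL4, AIRIM, ANAPC4, UBE2S and genes that did not pass were named after their values were seen. Settings varied were the level filter, the normalization, the variance model, the cluster rule, a replicate block and each array. Plots were made in Python 3.11.15 (matplotlib 3.10.9).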

Additional observations from a re-analysis of the deposited data

How the results depend on the processing

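Under the 7 settings that kept all 4 arrays, between 35 and 38 members fell and 2 rose, no member changed direction, and 39 of 42 kept their call. SGO1 was lost without a level filter, after quantile normalization, with median centring, with a variance trend and with the block (adjusted p in limma 0.054 to 0.086), and CENPM without a level filter and with the block. CENPE passed above the 50th percentile and with median centring (adjusted p in limma 0.044 and 0.039). Replicate numbers are not stated to mark a shared culture. Deviations of same-numbered arrays correlated at 0.271, and with the replicate number as a block 35 members fell, 2 rose and 3898 genes passed in place of 4756. With 1 array left out, which leaves 1 residual degree of freedom, the counts of members and of all genes passing in limma were 0 in either direction, with 4732 to 4930 genes at an unadjusted p under 0.05. The members' median then lay between -0.913 and -0.778. No detection calls were used, so signal over background is unknown.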
